A study of Mus musculus with 18 samples.

Results

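The 5 probe sets described here read 3 of 8251 genes on the chip, Gata1, Gata2 and Zfpm1, which code for the transcription factors Gata-1 and Gata-2 and for their cofactor Fog-1. They were taken by gene symbol from the platform's gene table, 2 for Gata1, 2 for Gata2 and 1 for Zfpm1, out of 12422 probe sets tested. All samples were of G1E-ER4, a clone of mouse erythroid cells that came from embryonic stem cells with a disrupted Gata1 gene. Every group, the untreated one included, carried Gata-1-ER, in which Gata-1 is joined to the part of the estrogen receptor that binds estradiol. The groups were untreated cells (0 h) and cells given estradiol for 3, 7, 14, 21 or 30 h. Each time had 3 arrays (Affymetrix MG-U74Av2), which the labels call biological replicates and letter A, B and C. All arrays came from 1 clone, and none held cells without the fusion or untreated cells kept to a later time.

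Gata factors bind short GATA sequences in DNA through zinc fingers. Gata-2 serves stem cells and early blood progenitors, and Gata-1 serves red cell precursors, megakaryocytes, mast cells and eosinophils. During red cell development Gata-1 takes the place of Gata-2 at many sites, the Gata2 gene among them, and this exchange is known as the Gata switch. Fog-1, coded by Zfpm1, does not bind DNA by itself but attaches to a zinc finger of Gata-1 and brings the chromatin complex NuRD and the corepressor CtBP. The comparisons ask how the transcripts of the 3 genes stood at each time after the Gata-1 fusion had been made active.

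The DNA before the start sites of the 3 genes is shown because Gata factors act through such sequences. RefSeq held 4 start windows for the 3 genes (build GRCm38.p6), and the 250 bases before each start are given from 5′ to 3′ on the gene's strand. The Gata1 window is chrX:7967911-7968160 on the minus strand, the Gata2 windows are chr6:88193641-88193890 and chr6:88198414-88198663 on the plus strand, and the Zfpm1 window is chr8:122281891-122282140 on the plus strand. Capitals mark the GATA core (GATA), the CACCC box bound by Kruppel-like factors (CCACCC), the GC box (GGGCGG), the CCAAT box (CCAAT) and the E-box (CANNTG) on either strand.
Gata1 window: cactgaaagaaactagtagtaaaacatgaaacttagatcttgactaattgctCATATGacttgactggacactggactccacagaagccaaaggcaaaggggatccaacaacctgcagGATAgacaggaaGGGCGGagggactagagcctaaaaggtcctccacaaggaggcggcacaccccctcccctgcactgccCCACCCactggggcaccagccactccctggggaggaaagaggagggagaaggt
Gata2 distal window: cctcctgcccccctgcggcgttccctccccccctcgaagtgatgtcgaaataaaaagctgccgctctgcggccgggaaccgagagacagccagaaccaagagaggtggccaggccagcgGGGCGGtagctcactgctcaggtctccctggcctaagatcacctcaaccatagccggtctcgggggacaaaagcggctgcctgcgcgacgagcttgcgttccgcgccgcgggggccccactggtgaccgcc
Gata2 proximal window: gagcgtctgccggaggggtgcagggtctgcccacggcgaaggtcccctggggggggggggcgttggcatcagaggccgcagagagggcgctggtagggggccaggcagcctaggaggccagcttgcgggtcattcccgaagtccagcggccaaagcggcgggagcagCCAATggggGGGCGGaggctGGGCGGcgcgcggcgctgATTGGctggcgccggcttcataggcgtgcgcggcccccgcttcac
Zfpm1 window: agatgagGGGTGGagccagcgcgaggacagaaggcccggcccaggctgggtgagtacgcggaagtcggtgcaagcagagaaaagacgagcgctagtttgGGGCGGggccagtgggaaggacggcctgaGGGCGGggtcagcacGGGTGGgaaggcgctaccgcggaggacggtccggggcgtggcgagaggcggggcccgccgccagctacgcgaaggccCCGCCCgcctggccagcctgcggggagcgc

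No copy of the full Gata site, searched on both strands as GATA with A or T before it and A or G after it, lay in any of the 4 windows, and 26.5% of 32851 mouse windows of the same length held one. The Gata1 window had 1 bare GATA core, 132 to 129 bases before the start, which 53.6% of all windows share in at least 1 copy. It also had 1 CACCC box, 53 to 48 bases before the start (in 28.1% of all windows), 1 GC box (in 32.7%) and 1 E-box (in 66.2%). The distal Gata2 window had 1 GC box, and the proximal one had 2 GC boxes and 2 CCAAT boxes (in 33.8%). The Zfpm1 window had 2 CACCC boxes and 3 GC boxes. None of the 4 held TATAAA, which 12.4% of all windows did. These matches describe letters only, in windows that leave out more distant control regions, and the array does not tell which Gata2 start was used.

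The labelled cell type was checked against its markers. Of 9 red cell markers 7 were measured, and their summed signal rose from between 9401 and 11977 at 0 h to between 54372 and 66505 at 30 h. Globin weighs heavily in this sum, as Hba-a1 alone had means of 6061 and 26549. At 30 h 5 of the 7 were called higher by limma, where 12.8% of all probe sets were. Those not called were Epor, with means of 584 at 0 h and 574 at 30 h, and Tfrc, with 1240 and 2359 (adjusted p = 0.944 and 0.110). Markers of other blood cells that use Gata factors had lower sums. The 9 mast cell and basophil markers summed to between 119 and 270.5 over all arrays, the 5 measured megakaryocyte markers to between 70 and 231, and the 3 measured eosinophil markers to between 8.6 and 55.3. Within these lists Cma1, a mast cell protease, was called higher at 21 h and 30 h, with a mean signal of 9.73 at 0 h and 64.2 at 30 h (log2 change 1.68, SE 0.33, adjusted p = 0.000563, limma). Gp9, a platelet receptor chain, was called higher at 14 h and 21 h, with means of 118 and 99.3 there against 30.8 at 0 h and 25.1 at 30 h, and Cpa3, a mast cell protease, lower at 21 h and 30 h. The 8 neutrophil and macrophage markers summed to between 180 and 421 and the 5 stromal ones to between 419 and 1027, with 0 of either list called by limma at any time against 0 h (at an unadjusted p below 0.05, 0 of the first list at any time and 1 and 2 of the second at 7 h and 30 h). No marker was at 0 throughout, and levels within a list differed. Tpsb2, a mast cell tryptase, had a mean of 73.0 at 0 h and 79.1 at 30 h, and Elane, a neutrophil elastase, 87.9 and 107, while the means of Tpsab1, Il5ra and Lyz2 were at most 3.93, 3.43 and 4.07 at any time. The part of other cells in the changes below was not tested, and in such bulk RNA fewer cells of a kind and less RNA per cell cannot be told apart. The median signal of an array lay between 38.2 and 50.9, which shows how bright the members were.

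Gata2, the progenitor factor, fell by the earliest time measured and stayed low. Its main probe set, 102789_at, gave deposited signals of 2091.9 in replicate A, 1939.7 in B and 1695.9 in C at 0 h. At 3 h the signals were 401.6, 611.3 and 349.8 in the same order. Every estradiol array thus lay below every untreated one, already at the earliest time, and 15.5% of all probe sets had arrays of 3 h and 0 h that did not overlap. At 7 h they were 351.7, 274.5 and 389.1, and at 14 h 175.1, 126.8 and 122.6. At 21 h A gave 179.3, B 83.6 and C 112.9, and at 30 h the signals were 112.3, 85.6 and 137.4. The arrays of 14, 21 and 30 h overlapped each other and lay below all arrays of 0, 3 and 7 h. Among 12422 probe sets, arrays did not overlap those of 7 h in 1956 at 14 h, 3169 at 21 h and 3998 at 30 h.

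The mean Gata2 signal was 1909 ± 200 (SD, n = 3) at 0 h and 454 ± 138 at 3 h, so that 23.8% of it was left. At 7 h 17.7% remained and at 14 h 7.41%, followed by 6.56% at 21 h and 5.85% at 30 h, where the mean was 112 ± 25.9. Changes are given on the scale of log2 of the signal plus 16, after quantile normalization, with standard errors (SE) and adjusted p values from the limma model of all 18 arrays. This scale understates the change of dim genes, and all comparisons with 0 h share the same 3 untreated arrays. On that scale Gata2 changed by −2.20 (SE 0.23, adjusted p = 1.7e-05) at 3 h, which is 55.6% of its change at 30 h (−3.96, SE 0.23, adjusted p = 1.55e-10). By 14 h 93.6% of the change had been reached. Among all probe sets 0.306% were called lower at 3 h and 13.8% at 30 h.

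The steps between neighbouring times show when the fall took place. From 3 h to 7 h the arrays overlapped and Gata2 changed by −0.36 (SE 0.23, adjusted p = 0.681), or by −0.53 without 3 h replicate C, −0.23 without 7 h replicate B and −0.12 without 3 h replicate B, with no call in any of these. From 7 h to 14 h it fell by 1.15 (SE 0.23, adjusted p = 0.0102), a step for which 1.07% of all probe sets were called lower, and without 7 h replicate C this call was lost (−1.04, adjusted p = 0.0589). From 14 h to 21 h the change was −0.14 and from 21 h to 30 h −0.12 (95% intervals −0.62 to 0.35 and −0.60 to 0.37), so no further fall was measurable. In the order of levels 0 h stood highest, then 3 h, 7 h, 14 h, 21 h and 30 h. The pairs of neighbours that passed the test were 0 h with 3 h and 7 h with 14 h.

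The other Gata2 probe set, 161820_f_at, belongs to a kind whose probes may read related transcripts. Its signals ran from 0.9 to 20.2 over the 18 arrays, with a mean of 7.07 at 0 h and 2.73 at 30 h. It was not called at any time (adjusted p = 0.845 in the limma F test over times). At this level it lay far below the array medians and could show neither the fall nor its absence.

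Zfpm1 rose by the earliest time measured and then in smaller steps. Probe set 97974_at gave 1756.3 in replicate A, 1668.1 in B and 2253.9 in C at 0 h. At 3 h it gave 3989.1, 3030.2 and 3321.4, and at 7 h 4916, 4505.3 and 4634.5. Each of these groups lay wholly above the one before it. At 14 h the signals were 5386.6, 5272.7 and 5444.7, at 21 h 6794.9, 6260.8 and 7544.5, and at 30 h 7459.9, 7280 and 7404.5. Again 14 h lay wholly above 7 h and 21 h wholly above 14 h, and only the arrays of 21 h and 30 h overlapped.

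The mean Zfpm1 signal was 1893 ± 316 (SD, n = 3) at 0 h and 3447 ± 492 at 3 h, a ratio of 1.82. It was 2.48 times the 0 h mean at 7 h and 2.84 times at 14 h, then 3.63 times at 21 h and 3.9 times at 30 h, where the mean was 7381 ± 92.1. The log2 change was 0.84 (SE 0.15, adjusted p = 0.00417) at 3 h, then 1.28, 1.44 and 1.70 at the times up to 21 h, and 1.82 (SE 0.15, adjusted p = 1.17e-08) at 30 h. Of all probe sets 0.757% were called higher at 3 h and 12.8% at 30 h. The call at 3 h was lost when the 6 arrays of these times were fitted alone (0.82, adjusted p = 0.0590). By 3 h Zfpm1 had made 46.2% of its change at 30 h and by 7 h 70.1%.

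No single step of Zfpm1 after 3 h passed the test, although 3 of the 4 steps had arrays that did not overlap. The change was 0.44 from 3 h to 7 h (SE 0.15, adjusted p = 0.244), 0.16 from 7 h to 14 h, 0.27 from 14 h to 21 h and 0.12 from 21 h to 30 h. Arrays that do not overlap were common, in 17.3% of all probe sets for 3 h to 7 h, in 15.7% for 7 h to 14 h and in 1993 of 12422 for 14 h to 21 h. Across some wider spans the rise was called, and across others it was not. From 7 h to 21 h it was 0.42 (adjusted p = 0.0690) and from 14 h to 30 h 0.39 (adjusted p = 0.0900), with no call in either. From 3 h to 14 h it was 0.59 (adjusted p = 0.0123), from 3 h to 30 h 0.98 (adjusted p = 3.29e-05) and from 7 h to 30 h 0.55 (adjusted p = 0.0106), spans for which 4.42%, 12.6% and 9.32% of all probe sets were called higher. The call for 3 h to 14 h was lost without 3 h replicate B (0.47, adjusted p = 0.0851) or 14 h replicate A (0.57, adjusted p = 0.0503), and that for 7 h to 30 h without 7 h replicate B (0.46, adjusted p = 0.0575) or C (0.49, adjusted p = 0.0506). In the order of levels only the neighbours 0 h and 3 h differed by the test.

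**Figure D1:**
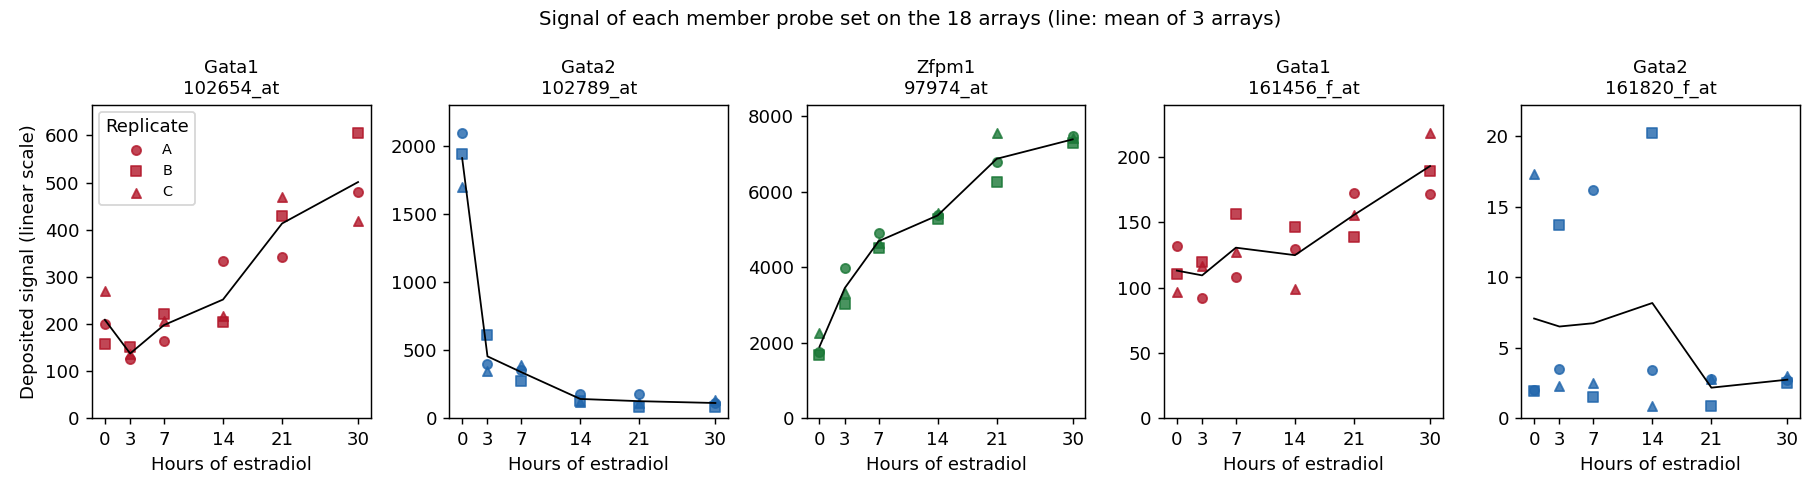
Deposited signal (linear scale, from 0) of each member probe set against hours of estradiol, with a marker for each replicate and a line through the means of 3 arrays. Gata2 drops from a mean of 1909 at 0 h to 454 at 3 h, and Zfpm1 climbs from 1893 to 7381 over 30 h. The main Gata1 probe set dips at 3 h (not called) and ends at 501, and the second Gata2 probe set stays at or under 20.2.

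Gata1 took another course, with no call against 0 h before 21 h. Its main probe set, 102654_at, gave 200.6 in replicate A, 156.8 in B and 269.2 in C at 0 h. At 3 h the signals were 125.7, 150.1 and 136.2, below all arrays of 0 h and also below all of 7 h (164.7, 221.2 and 206.8). At 14 h replicate A stood at 334.1, above B with 204.4 and C with 216.8. At 21 h the signals were 341, 428.3 and 470.2, and at 30 h 479.9, 604.6 and 418.3. All arrays of 21 h and 30 h lay above all earlier arrays, and those of 21 h and 30 h overlapped. Such separation was common among the 12422 probe sets. Against 0 h it was found in 4011 at 21 h and 4662 at 30 h, and against 14 h in 1993 and 3295.

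The mean Gata1 signal was 209 ± 56.7 (SD, n = 3) at 0 h and 137 ± 12.2 at 3 h. It was back to 198 ± 29.4 at 7 h and stood at 252 ± 71.6 at 14 h, then at 413 ± 65.9 at 21 h and 501 ± 94.9 at 30 h. The value at 3 h was not called (log2 change −0.50, SE 0.21, adjusted p = 0.481), although its arrays did not overlap those of 0 h, a separation given above for 15.5% of all probe sets. Without 0 h replicate C it was −0.31 and without 0 h replicate B −0.68, with no call in either. Gata1 rose by 1.02 (SE 0.21, adjusted p = 0.00114) at 21 h and by 1.29 (SE 0.21, adjusted p = 6.76e-05) at 30 h, times at which 9.75% and 12.8% of all probe sets were called higher. The time of 3 h was also taken as a base because its mean was the lowest in these data, so rises from it are favoured by that choice. Against 3 h the rise was 0.82 at 14 h (adjusted p = 0.0142), 1.52 at 21 h (adjusted p = 2.06e-05) and 1.80 at 30 h (adjusted p = 1.46e-06). Of all probe sets 4.42%, 8.60% and 12.6% were called higher against 3 h at these times. The call at 14 h was lost without 3 h replicate A (0.77, adjusted p = 0.0624) and without 14 h replicate A (0.62, adjusted p = 0.10). With arrays scaled to a common median it was lost too (0.68, adjusted p = 0.0782).

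Ordered by level, Gata1 ran from 3 h over 7 h, 0 h, 14 h and 21 h to 30 h. None of these neighbours differed by the test, and the widest step was that from 14 h to 21 h (0.70, SE 0.21, adjusted p = 0.0945). Without 14 h replicate A this step was called (0.91, adjusted p = 0.0222), and with all arrays 0.942% of all probe sets were called higher in it. At 30 h Gata1 stood above 14 h by 0.97 (adjusted p = 0.00268) and above 7 h by 1.34 (adjusted p = 7.03e-05), where 6.42% and 9.32% of all probe sets were called higher.

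The other Gata1 probe set, 161456_f_at, of the kind that may read related transcripts, was also higher at 30 h, by less. Its mean was 113 ± 17.7 (SD, n = 3) in untreated cells and 109 ± 14.9, 131 ± 24.5, 125 ± 24.2, 156 ± 16.9 and 193 ± 23.6 at the times from 3 h to 30 h. Its log2 change was −0.01 (SE 0.18) at 3 h, so it did not show the dip of the main probe set. It was called higher at 30 h (0.79, SE 0.18, adjusted p = 0.00255) but not at 21 h (0.50, adjusted p = 0.0623). Against 3 h it was not called at 14 h (0.15, adjusted p = 0.734) or 21 h (0.52, adjusted p = 0.0601), but was at 30 h (0.81, adjusted p = 0.00241). Over the 18 arrays both probe sets had a Pearson r of 0.78, and once the mean of each time was taken off r was 0.02, so what they shared was the course over time. Whether either one reads the transcript of the Gata-1-ER transgene or that of the disrupted gene was not tested.

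**Figure D2:**
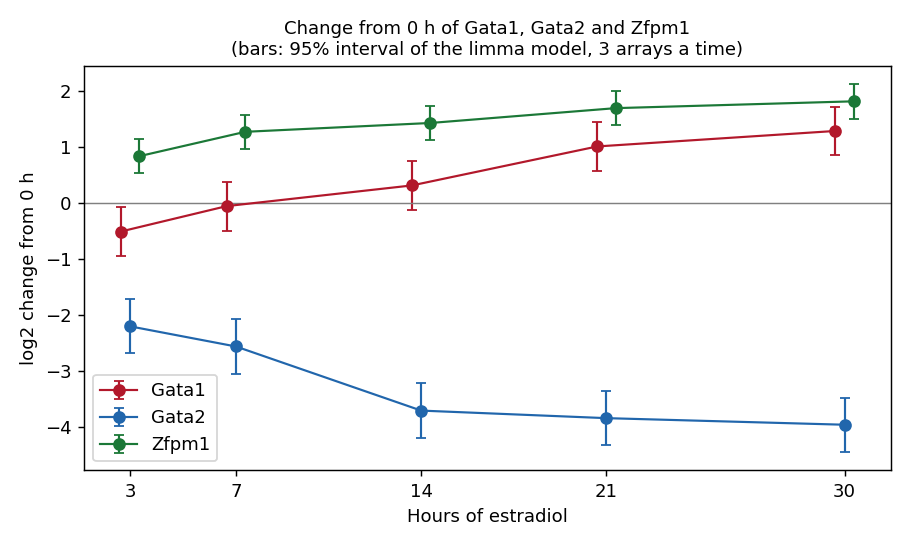
log2 change from 0 h of the main probe set of each gene at 3, 7, 14, 21 and 30 h of estradiol, with bars for the 95% interval of the limma model (points are shifted sideways a little). Gata2 stands at −2.20 at 3 h and at −3.96 at 30 h, Zfpm1 at 0.84 and 1.82, and Gata1 at −0.50 and 1.29.

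The courses of the genes were then compared within each array. For each array the log2 signal of one gene was subtracted from that of another, and the change of this difference from the 3 untreated to the 15 estradiol arrays was tested by an exact permutation test, two-sided, over 816 assignments. Gata1 relative to Gata2 rose by 3.67, from a mean of −3.26 at 0 h to 0.41 with estradiol, and reached a change of 5.25 at 30 h. Zfpm1 relative to Gata2 rose by 4.67, and by 5.78 at 30 h. Zfpm1 relative to Gata1 rose by 1.0. In each of the 3 pairs every one of the 15 estradiol arrays lay above all 3 untreated arrays, with an exact permutation p = 0.00123 for each, also after adjustment over the 3 pairs, the smallest p that 816 assignments can give. The estradiol arrays come from 5 times and are not replicates of a single condition, so the p tells only that the untreated arrays stood apart. In the pairs with Gata2 this followed from its fall given above. So each pair changed unequally from 0 h, which says nothing of which transcript or protein was more abundant.

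Read from the main Gata1 probe set, the gap between Zfpm1 and Gata1 was widest early. It grew by 1.35 from 0 h to 3 h, when the mean difference was 4.60 ± 0.33 (SD, n = 3) against 3.25 ± 0.14 at 0 h. It was 4.58 ± 0.47 at 7 h and 4.37 ± 0.33 at 14 h, and then narrowed to 3.94 ± 0.12 at 21 h and 3.78 ± 0.25 at 30 h. All arrays of 21 h and 30 h lay below all arrays of 3 h and 7 h. This narrowing was not tested, and no share was computed for such gaps. For single probe sets, arrays did not overlap those of 3 h in 4093 of 12422 at 21 h and 4919 at 30 h. The gap between Gata1 and Gata2 was −3.26 ± 0.50 at 0 h and −1.56 ± 0.35 at 3 h, followed by −0.75 ± 0.41 at 7 h, 0.77 ± 0.16 at 14 h, then 1.60 ± 0.63 at 21 h and 1.99 ± 0.47 at 30 h. Only the change of a gap can be read, and its sign does not tell which transcript was more abundant. Even the probe sets of Gata1 alone differed in signal, with means of 209 and 113 at 0 h. They also differed in course. From 3 h to 30 h 102654_at rose by 1.80 and 161456_f_at by 0.81, beside 0.98 for Zfpm1. With 161456_f_at the gap to Zfpm1 thus did not narrow over that span.

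**Figure D3:**
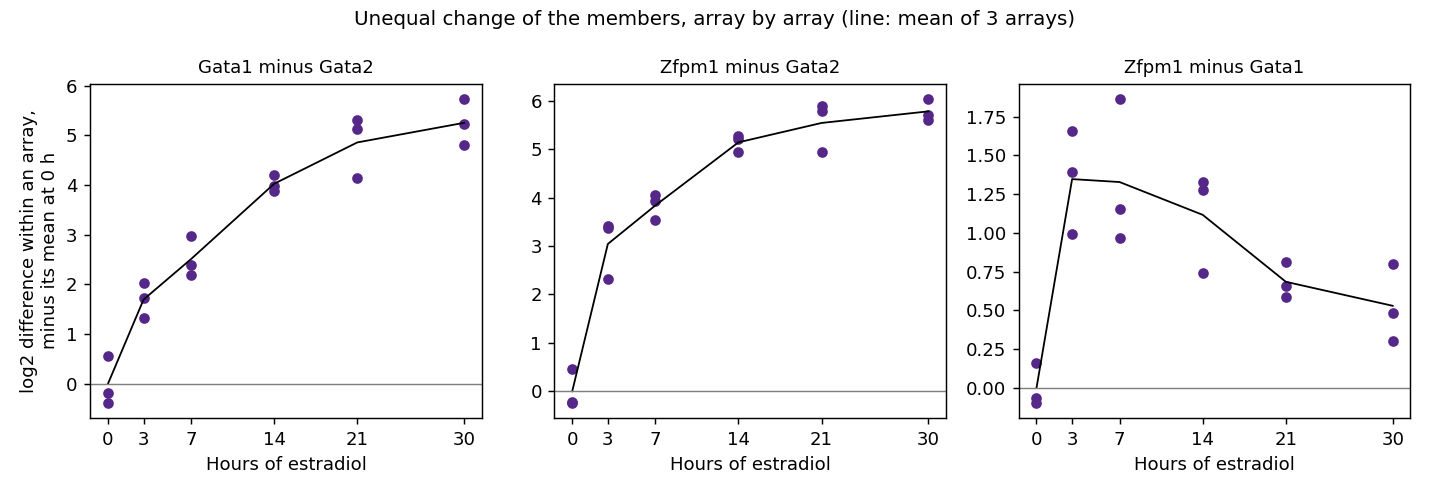
log2 difference between 2 members within an array, minus its mean at 0 h, against hours of estradiol, with a point for each array and a line through the means. Gata1 minus Gata2 and Zfpm1 minus Gata2 climb to 5.25 and 5.78 at 30 h. With the main Gata1 probe set, which is shown, Zfpm1 minus Gata1 jumps by 1.35 at 3 h and then declines.

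Of the other genes of the Gata and Fog families, Gata4 was the one with a mean above every array median, at all times but 3 h. Gata3, the Gata factor of T cells, had means from 4.6 to 25.6 over the times, Gata6 from 19.3 to 39.2 and Zfpm2, the Fog-2 gene of heart development, from 4 to 11.2. Gata4, a factor of heart and gut, lay between 31.4 and 94.0. In the limma F test over times 0 of the 5 family genes were called, where 27.2% of all probe sets were, and 2 had an unadjusted p below 0.05. At 21 h Gata3 was called lower (−0.96, SE 0.31, adjusted p = 0.0332), at a mean signal of 4.6. The median change of the 5 genes at 30 h was −0.20, beside 0.05 for all probe sets.

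Genes of the factors that sit on DNA with Gata proteins moved in several ways. Of 17 partners 16 were measured. At 3 h 1 was called higher and 3 lower, where 0.757% and 0.306% of all probe sets were. Those lower were Cbfa2t3, a corepressor of Tal1 complexes (−2.28, SE 0.18, adjusted p = 4.54e-07), Lyl1, a relative of Tal1 (−2.25, adjusted p = 4.54e-07), and Tal1, the factor that joins Gata proteins to E-boxes (−1.45, adjusted p = 0.00434). Klf1, which binds CACCC boxes of red cell genes, was the one that rose (0.47, SE 0.11, adjusted p = 0.0485). Tal1 and Cbfa2t3 fell with Gata2 at 3 h but came back later, with means of 322 and 250 at 30 h against 318 and 351 at 0 h (0.09 and −0.35, adjusted p = 0.854 and 0.176). A second, dimmer Cbfa2t3 probe set stood at −1.22 at 3 h (not called, adjusted p = 0.217) and did not show a return to its 0 h mean. Its mean signal was 64.7 at 0 h and 25.6 at 30 h, which was not called either (adjusted p = 0.0654).

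At 7, 14 and 21 h 3, 3 and 1 partners were called higher and 3, 2 and 2 lower. Among all probe sets 2.48%, 6.55% and 9.75% were called higher and 1.69%, 6.77% and 10.9% lower, so the counts at 21 h (of 16 genes) were near the background. Some had their highest mean at 7 h. Gfi1b, a repressor that red cells need, rose from a mean signal of 684 at 0 h to 1674.5 at 7 h (1.32, SE 0.16, adjusted p = 3.19e-05) and stood at 788 at 30 h (0.19, adjusted p = 0.466). Lmo2, the bridge between Tal1 and Gata proteins, was called higher at 7 h (0.94, adjusted p = 0.00151), again at 14 h (0.73), and stood at −0.34 at 30 h (adjusted p = 0.141). At 30 h 2 partners were called higher and 2 lower, near the background of 12.8% and 13.8%. Those higher were Klf1 (0.90) and Spi1, the gene of the Gata-1 opponent PU.1 (157 to 263, 0.81, SE 0.22, adjusted p = 0.00939). Those lower were Lyl1 (−5.65) and Med1, a Mediator subunit that binds Gata-1 (−0.49, adjusted p = 0.0475). The call of Med1 was lost in 14 of the 18 fits that left out 1 array (adjusted p from 0.0284 to 0.153), and that of Lyl1 in 0. The median change of the 16 genes at 30 h was 0.04, beside 0.05 for all probe sets.

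Most measured genes of the cofactors that Fog-1 brings fell late. Of 15 genes of NuRD, CtBP and the Fog-1 partner Tacc3, 12 were measured. At 3 h limma called 0 of them at an adjusted p below 0.05, and 2 had an unadjusted p below 0.05. At 7 h 1 was called lower, Chd4, at 14 h 4, at 21 h 8 and at 30 h 9, with 0 called higher at each of these times. Among all probe sets 1.69%, 6.77%, 10.9% and 13.8% were called lower at these times. Rbbp7, a histone-binding subunit that holds Fog-1, fell from 2237 to 352 by 30 h (−2.66, SE 0.15, adjusted p = 1.35e-10). The deacetylase genes Hdac2 and Hdac1 fell by 1.81 and 0.97, and Chd4, the remodelling motor of NuRD, fell from 4696 to 1897 (−1.50, SE 0.14), read by a probe set that may read related transcripts. Ctbp2 and Ctbp1 fell by 1.62 and 0.86. The genes not called at 30 h were Mta2 (−0.22), Mbd2 (0.30) and Gatad2a (0.06). The median change was −0.42 at 14 h and −0.91 at 30 h, beside 0.01 and 0.05 for all probe sets.

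**Figure D4:**
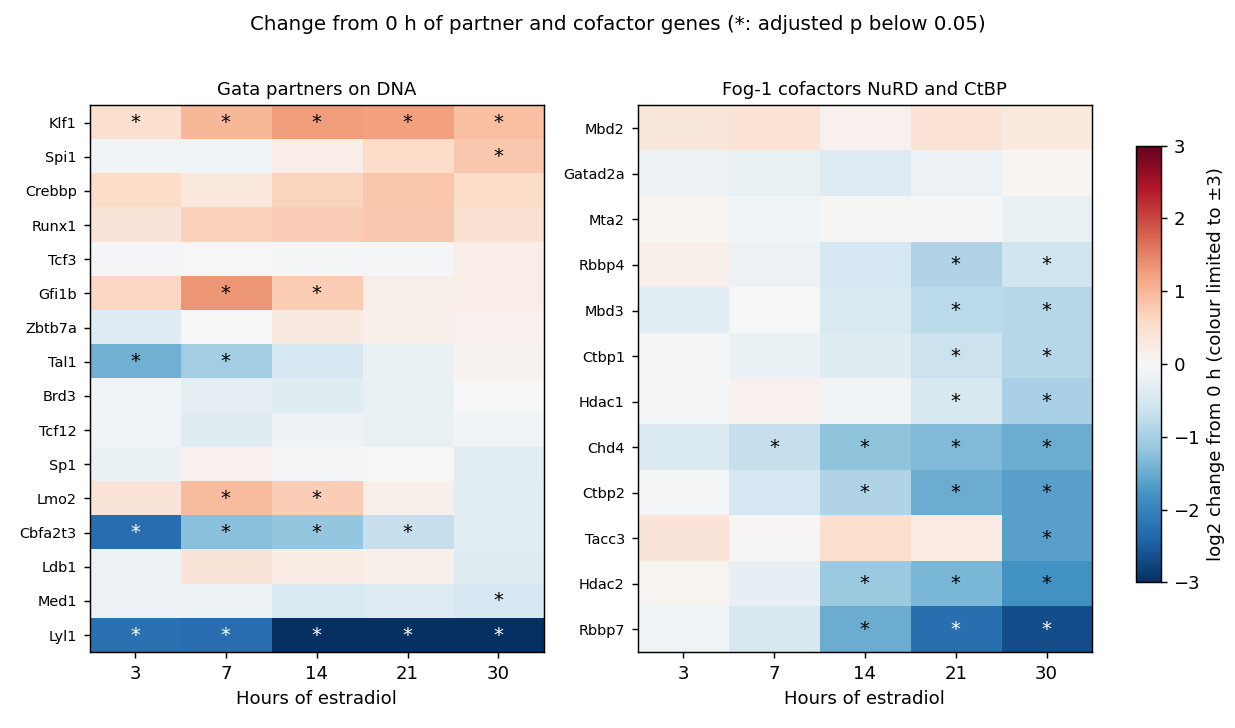
log2 change from 0 h (colour, limited to 3 either way) at 5 times for the 16 measured Gata partners and the 12 measured Fog-1 cofactors, with a star where the adjusted p was below 0.05. Tal1 and Cbfa2t3 are starred lower at 3 h and 7 h and unstarred at 30 h, and 9 cofactor genes are starred lower at 30 h.

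Textbook target genes of Gata-1 stood beside the members as follows. Of 17 red cell genes that Gata-1 activates 14 were measured, and 1, 5, 10, 10 and 10 of them were called higher at 3, 7, 14, 21 and 30 h, with a median change of 1.43 at 30 h. Background shares of calls higher were 0.757%, 2.48%, 6.55%, 9.75% and 12.8%. Alas2, which starts heme synthesis in red cells, had a mean signal of 108 at 0 h, 220 at 3 h (not called) and 12476 at 30 h. Slc4a1, the anion exchanger of the red cell membrane, had a mean of 66.7 in untreated cells and 43.7 at 3 h, with 286 at 14 h and 3652 at 30 h. Hbb-b2, an adult beta globin whose probes may also read its near copy, rose by 2.87 and the heme enzyme gene Urod by 2.03 at 30 h. A second, dimmer Urod probe set did not show this rise, with means of 81 at 0 h and 59.7 at 30 h (−0.36, adjusted p = 0.527). Epor, the erythropoietin receptor, was lower at 3 h (584 to 373, −0.67, SE 0.11, adjusted p = 0.00298), a time at which Gata1 also had its lowest mean, and was not called at any later time.

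Of 10 progenitor genes that Gata-1 turns down 9 were measured, and 1, 3, 6, 6 and 6 were called lower at 3, 7, 14, 21 and 30 h. Among all probe sets 0.306%, 1.69%, 6.77%, 10.9% and 13.8% were called lower. Lyl1 was the one called at 3 h, the time of the main Gata2 fall. Myb, which keeps progenitors dividing, had a mean signal of 1346 at 0 h and still 1301 at 3 h, but 131 at 14 h and 7.47 at 30 h (−6.00, SE 0.29). Kit, the receptor for stem cell factor, went from 447 to 392 at 3 h and 26.4 at 30 h (−3.55, SE 0.36), and Myc from 250 to 154 and 9.7 (−3.36, SE 0.27). Spi1 was called higher at 30 h. The median change of the 9 genes was −0.08 at 3 h and −1.78 at 30 h.

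Genes with a course like that of each member were found by Pearson correlation over the 18 arrays, among 8250 other genes. These arrays share times and normalization, so the values describe likeness only. Genes chosen in this way tend to share the high and low points of the member, which is no separate support for those points. Most like Gata2 were Plp2, a membrane proteolipid (r = 0.97), the immediate early gene Ier2 (0.95), Lyl1 (0.94), Nab2, a corepressor of Egr factors (0.93), and Tspan4, a tetraspanin (0.93). Each had its highest mean at 0 h and was lower at 30 h, with log2 changes from −1.59 (Plp2) to −5.65 (Lyl1). Only 12 genes had an r above 0.9 with Gata2, whereas 51 had with Gata1 and 52 with Zfpm1.

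Most like Zfpm1 were St3gal5, which makes the ganglioside GM3 (r = 0.97), Csf2rb, the shared receptor chain for interleukin 3 and GM-CSF (0.97), Fam13b (0.96), Rogdi (0.96) and Kmt5c, a histone H4 methyltransferase (0.95). Mean signals of St3gal5 were 275 in untreated cells and 633, 1087, 1475, 2121 and 2223 at the times from 3 h to 30 h. Fam13b rose by 2.06 at 30 h, close to the 1.82 of Zfpm1, and Csf2rb by 6.66. Pearson correlation takes no account of the size of a change, so genes chosen by it may differ in size.

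Most like Gata1 were Atp6v0b, a subunit of the proton pump of lysosomes (r = 0.94), the ubiquitin ligase gene Rnf181 (0.94), Pttg1ip (0.94), Ap3d1, a subunit of a vesicle coat (0.94), and Cish, a feedback inhibitor of cytokine receptors (0.94). All 5 had their lowest mean at 3 h, as Gata1 did, though for Pttg1ip it was 375.6 against 376.2 at 0 h. Since they were chosen for likeness to Gata1, this does not bear on whether Gata1 itself fell at 3 h. Cish went from 291 in untreated cells to 153 at 3 h, then to 265 at 7 h and 793 at 30 h, and Atp6v0b from 700 to 451, 652 and 3620. Without quantile normalization, or with a common median, 3 of these 5 genes stayed among the 5 most like Gata1.

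**Figure D5:**
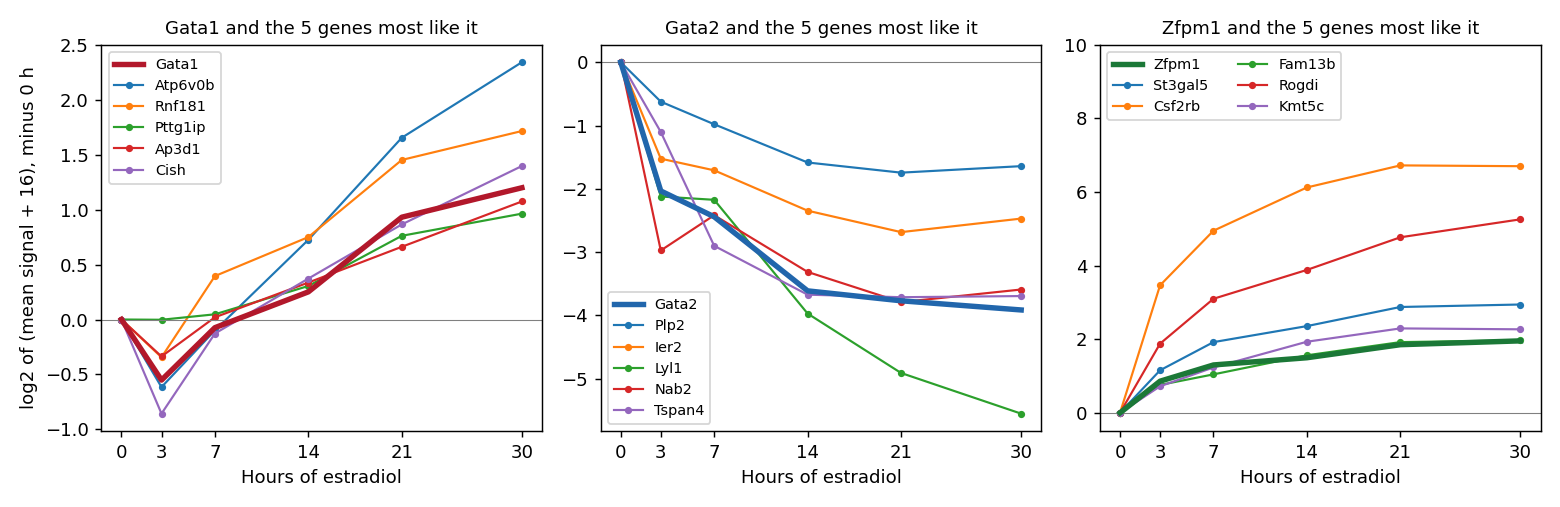
log2 of the mean signal plus 16, minus its value at 0 h, for each member (thick line) and the 5 genes with the highest Pearson correlation to it over 18 arrays (thin lines), against hours of estradiol. Gata1 and Cish dip at 3 h before they rise, the genes like Gata2 have their highest mean at 0 h, and Csf2rb rises furthest of the genes like Zfpm1.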

How the data were processed

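Total RNA of 18 samples was hybridized to Affymetrix MG-U74Av2 arrays, which read a transcript with a set of short probes, per the labels. The deposited values were linear intensity signals, 1 per probe set and array, with no value below 0. Their trimmed means, over all probe sets, lay between 150.094 and 150.124 on the 18 arrays, so the arrays share a scale. Which summary algorithm was used is not given in the sources used here. With 3 arrays a time, their number limits the precision. Groups came from the sample titles. The 66 control probe sets were left out, 16 was added, log2 taken, and the arrays quantile normalized. In R 4.3.3, limma 3.58.1 took all 18 arrays in 1 model with a mean per time (12 residual degrees of freedom, eBayes with an intensity trend), all 15 pairs of times were compared, and an F test covered all times. A call is a Benjamini-Hochberg adjusted p below 0.05 over all 12422 probe sets within a comparison. The path was tested on simulated data.

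Each gene was read from its brightest probe set (mean log2 over all arrays) among those that name exactly 1 symbol (8251 genes). Of 95 list symbols 82 were measured. All probe sets of the members are given, with the 4 genes of each list that had the smallest p in the F test, every gene of a count of 5 or fewer, and the 5 genes most like each member. Members and lists were chosen with earlier results of these data known, and genes beyond this rule after their values were seen. The settings tried were other scalings, constants of 1 and 64, a filter on dim probe sets, no trend, array weights, a block for the replicate letter, the compared times alone, and each array left out. The letters were checked as pairs: 3 of 45 same-letter pairs of arrays had a correlation of deviations above 0.1 (median 0.03), so they were not treated as pairs.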

Additional observations from a re-analysis of the deposited data

How the results depend on the processing

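Under other scalings, constants, the dim filter, no trend, array weights and the replicate block, every call of Gata1, Gata2 and Zfpm1 against 0 h and in the F test kept its direction and its side of the threshold; the exceptions below are under other settings or other comparisons. Array weights added a call for Gata1 from 14 h to 21 h (0.80, adjusted p = 0.0459). With the 2 compared times alone Zfpm1 at 3 h was 0.82 (adjusted p = 0.0590). The other Gata1 probe set gave 0.19 at 7 h, opposite in sign with no call in either, and 0.50 at 21 h. The dim other Gata2 probe set gave 0.024, −0.038, 0.027, −0.31 and −0.26 at 3, 7, 14, 21 and 30 h. Leaving out 1 array at a time, Gata1 at 3 h against 0 h ran from −0.68 to −0.31 and Gata2 from 3 h to 7 h from −0.53 to −0.12, Gata1 at 7 h against 0 h ran from −0.23 to 0.14, Gata1 from 14 h to 21 h from 0.57 to 0.91, Gata2 from 7 h to 14 h from −1.28 to −1.04, from 14 h to 21 h from −0.38 to 0.072 and from 21 h to 30 h from −0.32 to 0.13, and Gata6 at 30 h against 0 h from −0.18 to 0.19.

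The labels do not say what a replicate letter shares, and the check did not establish pairs. With the replicate block Zfpm1 from 7 h to 21 h was called (0.42, adjusted p = 0.0438; adjusted p = 0.0690 without it), as it was under both other scalings, with dim probe sets left out and without 0 h replicate C or 7 h replicate A. With the block Med1 was no longer called at 30 h (adjusted p = 0.0553), nor with its 2 times alone (adjusted p = 0.104), and 3351 probe sets were called at 30 h against 3314. Of the 18 arrays, 16 correlated more with their own letter than with the others on average. Zfpm1 from 14 h to 30 h was called with no quantile normalization (0.46, adjusted p = 0.0277) and not otherwise. Under each scaling the median change of all probe sets was at most 0.06 (log2). Signals near background, as that of 161820_f_at, limit what a fall could show.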
